A study of Rattus norvegicus with 24 samples.

Results

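The synaptotagmins are a family of vesicle proteins, and 10 of them are described here in lung tissue of rats: Syt12, Syt1, Syt2, Syt7, Syt8, Syt9, Syt11, Syt13, Syt15 and Syt17. They were listed by gene name, and all 10 of 10 were found among the 30667 genes measured, which hold 17 synaptotagmins in all. The list was built around Syt12, which was chosen by its measured difference between lettered groups. Its values by letter, and the counts, shares and calls that rest on them, are therefore a description and not a test. The study modelled lung cancer in rats with smoky coal, a fuel known for polycyclic aromatic hydrocarbons in its smoke. Messenger RNA was sequenced from 24 lung samples, whose titles join a letter (A, B, C or G, 6 samples each) to a number from 1 to 6 (4 samples each). All 24 samples, whichever their letter, carry the one protocol label smoky coal. The labels give no genotype, strain, age, dose or time, name no letter as a control, and do not say what a number stands for. They also do not say whether the samples came from separate animals, so the p-values measure the spread between these samples only.

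Synaptotagmins carry a pair of C2 domains, folds that in several members bind calcium and phospholipid and so couple a calcium signal to the fusion of a vesicle with the plasma membrane. Fusion itself is driven by SNARE proteins, which Munc18 and Munc13 proteins, complexins and Rab GTPases prepare. Syt1, Syt2 and Syt9 are calcium sensors of fast release, and Syt7 is a high-affinity sensor of slower release, also known from the exocytosis of lysosomes. Other members, Syt12, Syt13 and Syt15 among them, do not bind calcium through their C2 domains. In the lung, regulated exocytosis delivers surfactant from alveolar type 2 cells, secretory proteins and mucins from airway cells, and the granules of mast cells and leukocytes.

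The values are taken as normalized read counts per gene, and their sum was 61717516 to 66007148 per sample. The reads sequenced per sample are unknown, since the values are not raw counts and how they were normalized is not given. The submitters' processing notes name a mouse assembly, GRCm38, while the samples are from rats. Counts of one gene are therefore compared between samples here, and levels of different genes are not compared. The lung label was borne out by markers in all 24 libraries: the summed normalized counts of 9 alveolar type 2 markers lay between 1237094 and 1878764, and those of 7 alveolar type 1 markers between 239797 and 425751. Some libraries stood apart. The sum of 8 skeletal muscle markers was 82051 in A4 and 19419 in B4 and at most 3677 in the other 22, and 9 basal and squamous markers summed to 18455 in A4 and to 2381 or less in every other library. The highest sum of 8 cardiac muscle markers, 64953, was also that of A4. In G the highest cardiac sum was 25422, in G5, and B and C reached at most 9875. The highest sum of 8 T and B lymphocyte markers, 75652, was that of G2, and A, B and C reached at most 43638. The sum of 7 neutrophil markers was 31976 in A2 and 20261 in C2, and at most 16798 in the other 22.

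Syt12, also known as Srg1, encodes a synaptotagmin that does not depend on calcium and is phosphorylated by protein kinase A. It was lower in G than in A, B and C. In samples 1 to 6 of G it had 172, 137, 158, 153, 107 and 131 normalized counts. In A the same numbers gave 182, 218, 316, 247, 269 and 207. In B they gave 255, 248, 275, 286, 269 and 185. In C they gave 264, 232, 314, 299, 305 and 215. All 6 G samples therefore lay below all 18 others, although the gap was narrow: the highest G sample, G1, had 172 and the lowest of the others, A1, had 182. Of the 30667 genes, 6 (0.0196%) had all G samples below all others and 0 (0%) had all G samples above. Besides Syt12 these were Ahrr, Enpp2, Ighmbp2, Rhobtb2 and Tmprss4, which are named because they make up that count.

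**Figure D1:**
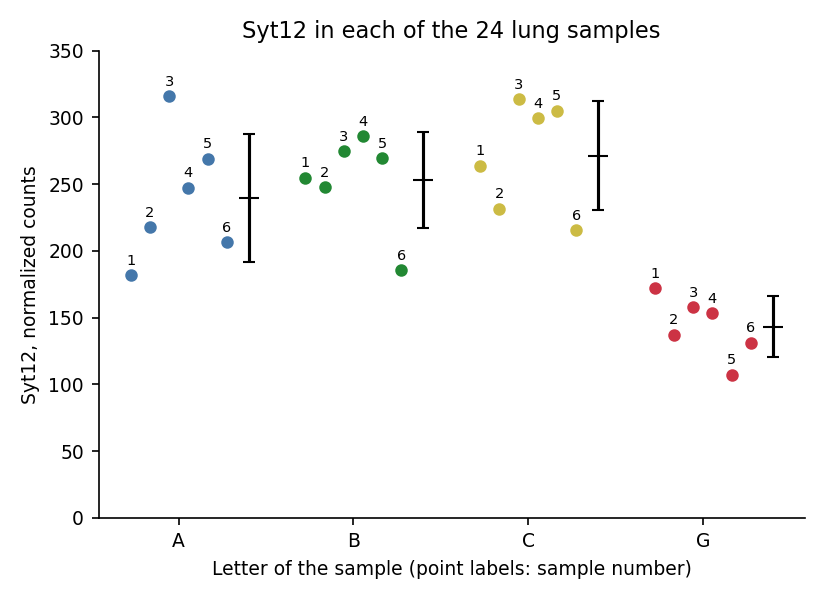
Normalized counts of Syt12 (vertical axis) in each of the 24 samples by letter (horizontal axis); point labels are sample numbers, and the bar beside each letter is the mean with its SD over 6 samples. The G samples lie at 107 to 172, and the 18 others at 182 to 316.

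Syt12 averaged 239.7 ± 48.2 normalized counts over the A samples (SD, n = 6 for each letter). The B samples averaged 253 ± 35.8, the C samples 271 ± 41.2 and the G samples 143 ± 22.9. A, B and C, whose means were ordered A, B, C, differed from their neighbours by less than 1 SD. The log2 difference of G was -0.73 against A, -0.82 against B and -0.92 against C (SE 0.14 in each). All differences between letters are on the log2(value + 1) scale, and the 3 comparisons share the G samples. Number by number, G5 was the furthest below its counterparts, at 39.9% of A5, 39.8% of B5 and 35.2% of C5. G1 was the nearest to one, at 94.5% of A1. G2, G3, G4 and G6 lay at or under 63.5% of the A sample with their number.

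Differences between letters took up 72.5% of the variance of Syt12 in log2(value + 1) over the 24 samples, and differences between numbers 13.8%. Over all genes the medians of these shares were 9.45% and 37.1%. The share of Syt12 between letters is a description only, since the gene was chosen on that difference. Syt12 did not pass the test over numbers (limma F test with the letter as a factor, adjusted p = 0.0904). Over A, B and C alone, an alternative added after the data were seen, it passed (limma adjusted p = 0.0190). In those 18 samples Syt12 was lowest at number 6, with 202 ± 15.4 (SD, n = 3), and highest at number 3, with 301 ± 23.2. Leaving out A1 or G5 also brought the test over numbers under the threshold of 0.05 (limma adjusted p = 0.0466 and 0.0194). In tissue samples of this kind, fewer cells that express a gene and less RNA per cell cannot be told apart.

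Red blood cell markers did not pass over letters, and their values are given beside those of Syt12. The summed counts of 7 such markers were 126091 to 313650 in G and 156644 to 1083377 in the other letters, so the ranges overlapped. The mean sum was 183723 in G and 473515 in the others. The median log2 difference of G over these markers was -1.32 against A, -1.03 against B and -1.2 against C. None of these 7 markers passed the test over letters, while 4 of 7 had an unadjusted p under 0.05 (limma F test). Of all 30667 genes, 1199 had such an unadjusted p. Their part in the level of Syt12 was not tested. The summed markers of pulmonary neuroendocrine cells, which carry synaptic vesicle proteins, were 1188 to 1387 in G and 1090 to 2071 in the others. Those of neurons and Schwann cells were 1806 to 3161 in G and 1257 to 5125 in the others. Both ranges of G lay inside the range of the other letters.

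The genes whose pattern was most like that of Syt12 were sought among 14572 genes with a mean of at least 50 normalized counts, by Pearson correlation of log2(value + 1) over the 24 samples. They were Ahrr (r = 0.85, Spearman's rho 0.69), Enpp2 (r = 0.78), Thap1 (r = 0.75), Spryd3 (r = 0.73) and Cd207 (r = 0.73, rho 0.77). These values are descriptions, since the genes were picked as the highest and the samples share letters and numbers. Ahrr codes for a repressor that restrains the aryl hydrocarbon receptor, a sensor of polycyclic aromatic hydrocarbons, and Enpp2 encodes autotaxin, which makes lysophosphatidic acid. The limma F test over the 4 letters called 2 genes (0.00652% of those tested), Ahrr and Syt12, and nothing is read from the second, which was chosen on that difference. Over the 24 fits that each left out 1 sample, Ahrr was called in 24 and Syt12 in 4, in which A1, A3, B6 or C6 was the sample missing. Ahrr had 45.4 to 97.8 normalized counts in G and 228 to 629.9 in the other letters. Its r with Syt12 was 0.25 over the 18 samples of A, B and C and 0.87 over the 6 samples of G, and whether these differ was not tested. In G, both genes had their lowest value in G5 and their next lowest in G6 (45.4 and 58.3 for Ahrr, 107 and 131 for Syt12).

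**Figure D2:**
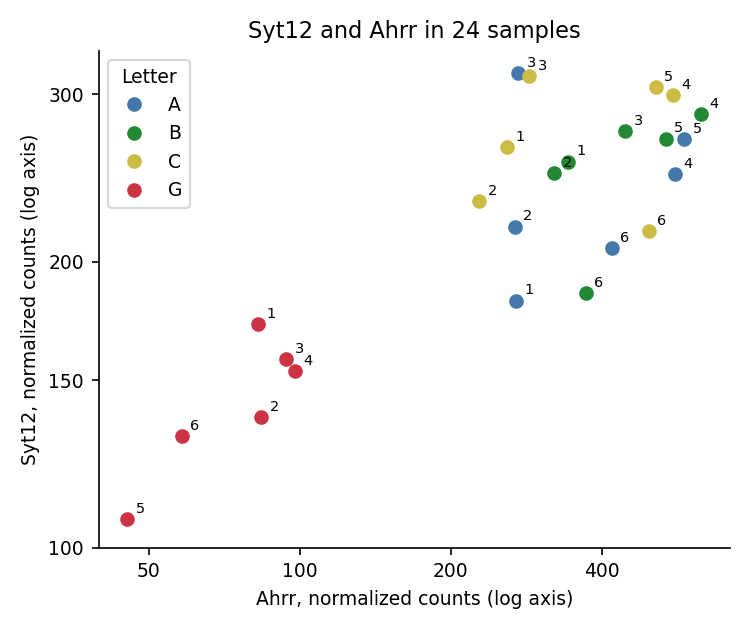
Normalized counts of Ahrr (horizontal, log axis) and Syt12 (vertical, log axis) in 24 samples, coloured by letter and labelled by number. The G samples form a separate cluster at the lower left, with Ahrr at 45.4 to 97.8, and within A, B and C the points show little common direction (r = 0.25).

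Cd207 encodes the dendritic cell lectin langerin. Its r with Syt12 was 0.72 over A, B and C, 0.54 over the 6 samples of G and 0.70 over all samples after the letter means were subtracted. After that subtraction the most alike genes were Rdh11 (r = 0.82), Vwa5b2 (r = 0.78), Selenok (r = 0.77), Kcnj14 (r = 0.76) and Sdcbp (r = 0.74). Rdh11 encodes a retinol dehydrogenase, Selenok a selenoprotein of the endoplasmic reticulum and Sdcbp the adaptor syntenin. Between letters these 5 had log2 differences of G from -0.06 to 0.21, and Rdh11 averaged 1227 normalized counts in G and 1238 in the other letters. The most opposed genes over 24 samples were Cyp4b1-ps1 (r = -0.78), a pseudogene of a cytochrome P450, and Klrg1 (r = -0.74) and Gzmk (r = -0.73), both genes of cytotoxic lymphocytes. Gzmk averaged 1631 normalized counts in G and 1095 in the other letters.

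Genes beside Syt12 were also compared, a check added after its values were seen. The order was that of protein-coding genes in the rat RefSeq annotation of GRCr8. The genes compared were Rhod and Kdm2a on one side and Lrfn4 and Rce1 on the other. Between Syt12 and Lrfn4 lie C1h11orf86 and Pc, which were not compared, so the nearest genes on that side are missing. The log2 differences of Rhod in G were -0.29 against A, -0.09 against B and -0.30 against C, and its G samples (379 to 451) overlapped the others (371 to 617). Those of Kdm2a lay between 0.00 and 0.04, those of Lrfn4 between 0.09 and 0.12, and those of Rce1 between -0.06 and -0.01. None of the 4 passed the limma F test over letters, and Rhod had an unadjusted p of 0.0128.

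Among the other 9 members, 0 passed the limma F test over letters and 0 had an unadjusted p under 0.05. Over the 6 pairs of letters, in the fit to letters alone, 0 of their 54 tests passed and 1 had an unadjusted p under 0.05. Of all genes, 0.00326% were called higher and 0.00326% lower in G against A, 0.00326% lower in G against B and 0.00652% lower in G against C, with 0% in the other pairs and directions. The 1 test of the members with an unadjusted p under 0.05 was that of Syt1, the calcium sensor of fast synaptic release, in G against A. Syt1 had 312, 217, 357, 477, 248 and 182 normalized counts in A1 to A6 and 469.9, 347, 454, 572, 489 and 413 in G1 to G6. The 2 letters overlapped, although G was higher in 6 of 6 numbers. The log2 difference was 0.67 (SE 0.26, limma adjusted p = 0.505). Against B it was 0.25 and against C 0.38, with G higher in 4 of 6 numbers in each. The outcome for G against A depended on the model. With the number added as a block, Syt1 passed there (limma adjusted p = 0.0441), and 391 genes were called against 2 without it. By the rule used, the numbers do not pair those samples, since only 4 of the 6 same-number pairs correlated over 0.1. The fit to letters alone keeps the differences between numbers in its spread.

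Syt13, which does not bind calcium and is known from the endocrine pancreas, had the widest spread between its samples, with a log2 difference in G of -0.79 against A, -0.84 against B and -0.21 against C. The SE was 0.60 in each, and the lowest adjusted p among these was 0.769. The A samples averaged 94.4 ± 67.5 normalized counts (SD, n = 6 for each letter) and the B samples 91.1 ± 57.9. C averaged 64.9 ± 44.4, and G averaged 46.0 ± 22.4. The log2 differences of Syt7 in G were -0.16 to -0.18 (SE 0.14), and its G samples (5680.4 to 6698) lay inside the range of the others (4636 to 9189). Syt11, which acts in membrane uptake rather than in calcium-triggered release, varied least: it had 912 to 1165 normalized counts over all 24 samples, and log2 differences in G of 0.09, 0.09 and 0.10.

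**Figure D3:**
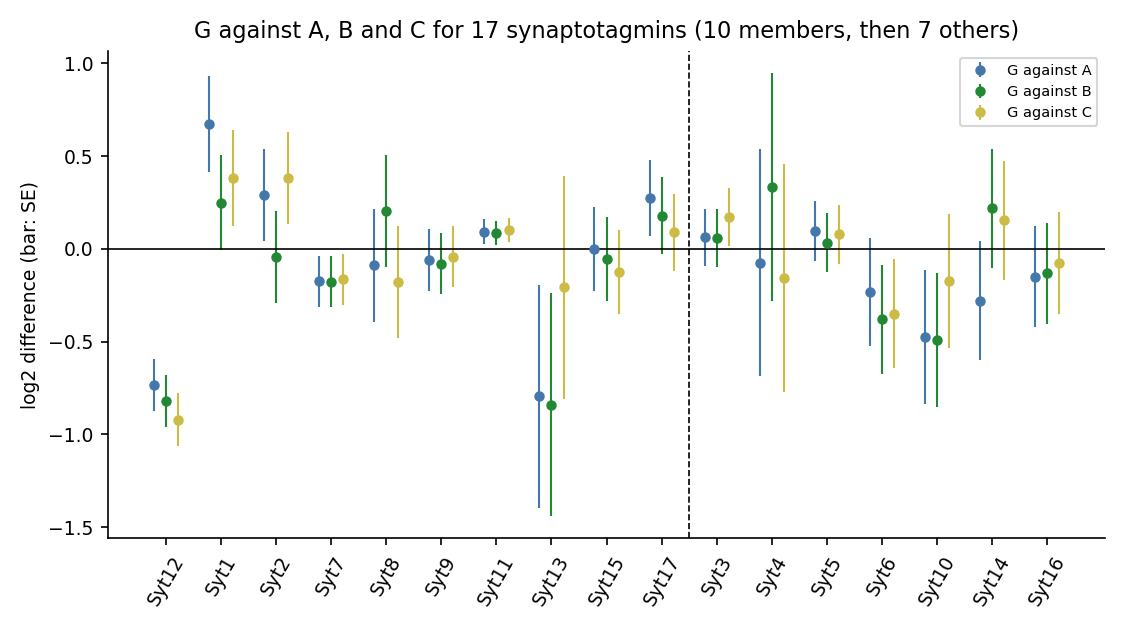
Log2 difference of G against A, B and C (vertical axis, points with SE from the fit to 24 samples) for each of the 17 synaptotagmins (horizontal axis, the 10 members left of the dashed line). Syt12 lies at -0.73 to -0.92 with SE 0.14, and the widest bars belong to Syt13 and Syt4.

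The numbers told the samples apart more than the letters did. In the limma F test over the 6 numbers, with the letter as a factor, 31.5% of all genes were called, and 6 of the 10 members: Syt1, Syt2, Syt7, Syt13, Syt15 and Syt17. Of the 7 synaptotagmins not on the list, Syt5 and Syt6 were called, so that 8 of 17 (47.1%) of the family passed. The members had been named with earlier results of these data known, so the share of 60% is not set against the 31.5% as a property of the list. Without the 4 samples numbered 6, Syt7, Syt15 and Syt2 lost the call and 3 members passed. Without A4 and B4, 6 members passed, and without A2 and C2, 5.

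**Figure D4:**
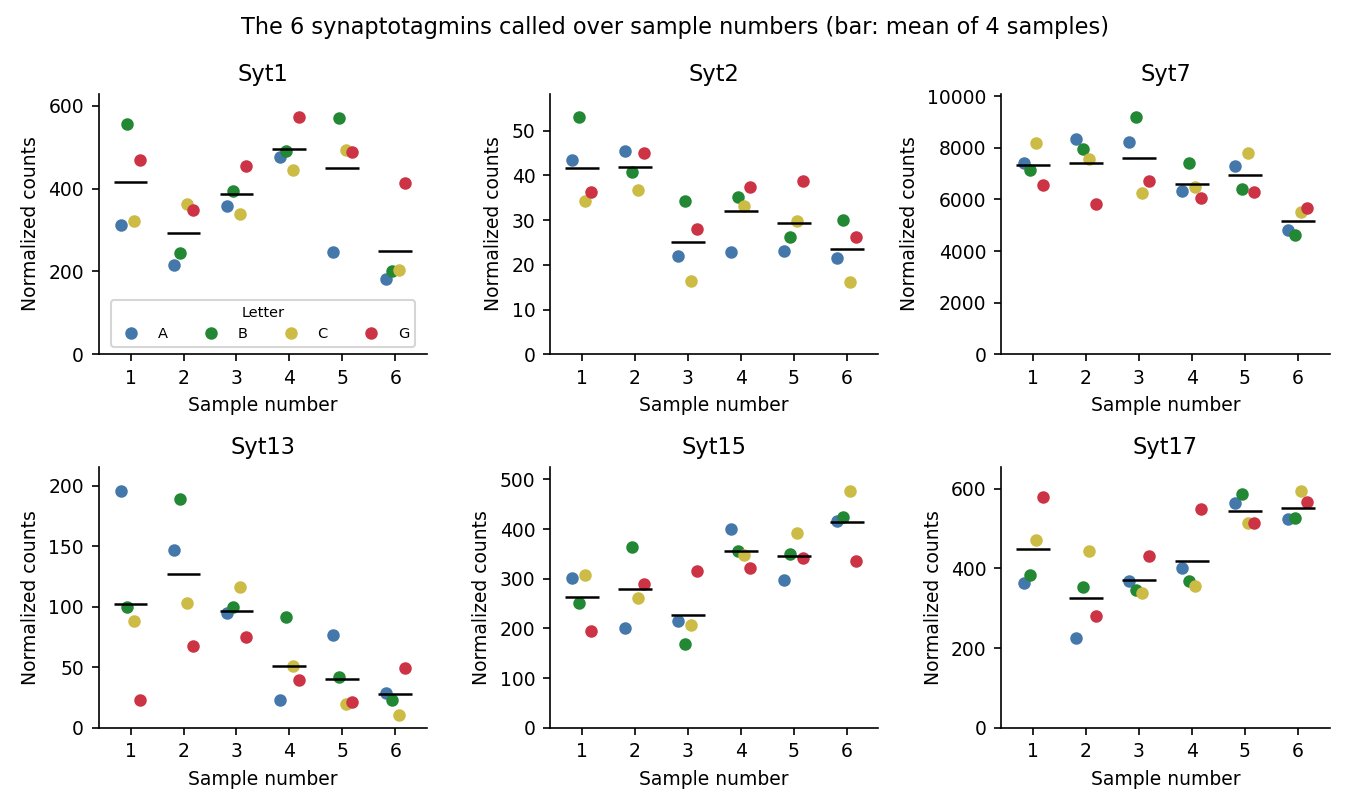
Normalized counts (vertical axes) of the 6 members called over sample numbers (horizontal axes), coloured by letter, with a bar at the mean of the 4 samples of a number. Syt13 runs from 10.4 in C6 to 196 in A1, Syt7 is lowest at number 6 (mean 5171), and Syt17 is highest at number 6 (mean 552).

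Among the calcium sensors, Syt1 had its highest mean at number 4, 496 ± 54.5 normalized counts (SD, n = 4), and its lowest at number 6, 249.6 ± 109 (limma adjusted p = 0.00235). A6, B6 and C6 had 182, 200.5 and 203, the lowest value of each letter, while G6 had 413. Of the G samples, G2 was lowest, at 347. Whether G departs from the other letters at number 6 was not tested, since each letter has 1 sample of a number.

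Syt2, a close relative of Syt1, had low counts throughout. Its means were 41.7 ± 8.49 at number 1 and 41.96 ± 4.08 at number 2 (SD, n = 4), against 25.2 ± 7.73 at number 3 and 23.5 ± 5.95 at number 6 (limma adjusted p = 0.0153). In A, the pattern was plain, with 43.4 and 45.4 in A1 and A2 and 21.6 to 23.1 in A3 to A6. In G, numbers 1 and 2 (36.2 and 45.0) lay above numbers 3 and 6 (28.0 and 26.2), while G4 and G5, with 37.3 and 38.7, lay between G1 and G2. The call was lost without A2 and C2 (limma adjusted p = 0.0595).

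Syt7 had 7330.3 ± 684, 7432 ± 1115 and 7598 ± 1358 normalized counts at numbers 1, 2 and 3 and 5171 ± 513 at number 6 (SD, n = 4; limma adjusted p = 0.00574). Samples numbered 6 were the lowest of each letter: A6 had 4835, B6 had 4636, C6 had 5534 and G6 had 5680.4. The difference rests on that number, since without it the limma adjusted p was 0.487. The alveolar type 2 markers were also lowest there in their mean sum, at 1294593 for number 6 against 1747623 for number 3. Singly, Sftpb and Napsa were lowest at number 5 and Etv5 at number 4, and the others of that list at number 6. Sftpc did not pass over numbers (limma adjusted p = 0.127). The part of these markers in the level of Syt7 was not tested. Syt9, the remaining fast sensor, had a mean of 163 ± 18.3 at number 1 and 119.6 ± 10.8 at number 5 and did not pass (limma adjusted p = 0.190). It passed without G2 (adjusted p = 0.0181). RefSeq lists SytV as a synonym of rat Syt9 and SytIX of rat Syt5, so the names of these 2 genes are interchanged in part of the literature.

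Of the members that do not sense calcium, Syt13 varied most over the numbers, from a mean of 127 ± 52.5 normalized counts at number 2 to 28.0 ± 16.3 at number 6 (SD, n = 4), a ratio of 4.53 (limma adjusted p = 0.00832). In samples 1 to 6 of A it had 196, 147, 95.2, 22.99, 76.3 and 28.9. In B it had 100.01, 189, 100.04, 91.9, 42.4 and 23.1, and in C 88.7, 103, 116, 51.0, 19.9 and 10.4. In each of these 3 letters the samples numbered 1, 2 and 3 held the 3 highest values. In G, with 23.2, 68.0, 74.9, 39.4, 21.2 and 49.6, they did not, since G1 lay under G4 and G6.

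Syt15 had the opposite leaning. Its mean was 226 ± 62.2 normalized counts at number 3, 264 ± 52.9 at number 1 and 414 ± 58.2 at number 6 (SD, n = 4; limma adjusted p = 0.00744). A6, B6 and C6 had 417, 425 and 477, each the highest of its letter. G6 had 336, inside the 289 to 341 of the G samples numbered 2 to 5. Syt17, also called B/K protein, lacks the membrane anchor of most synaptotagmins. It had means of 544 ± 36.9 at number 5 and 552 ± 34.6 at number 6 and of 326 ± 94.7 at number 2 (limma adjusted p = 0.00342). Values at numbers 5 and 6 lay between 512 and 595 in all 4 letters. G1 and G4, with 579 and 549.8, were as high, whereas A1 and A4 had 362 and 401.

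Syt8 and Syt11 did not pass the test over numbers (limma adjusted p = 0.579 and 0.361). Syt8, best known from skin and sperm, had 9.43 to 40.7 normalized counts, and the remainder left by letter and number took 69.6% of its variance. For the 10 members the median share of variance was 53.6% between numbers and 10.2% between letters. For the 7 other synaptotagmins these medians were 47.6% and 6.29%.

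**Figure D5:**
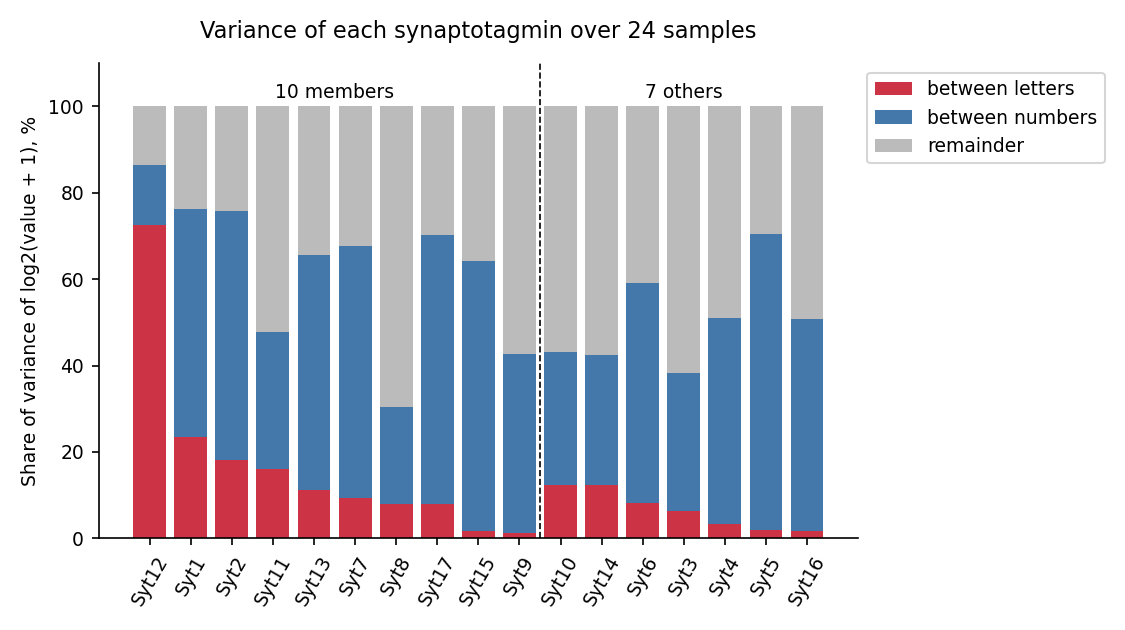
Share of the variance of log2(value + 1) over 24 samples (vertical axis, percent) that lies between letters, between numbers and in the remainder, for each of 17 synaptotagmins (horizontal axis). Syt12 has 72.5% between letters, and the next of the 10 members, Syt1, has 23.5%.

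Members did not move as one block. Over the 24 samples the highest Pearson correlations of log2(value + 1) were between Syt7 and Syt13 (r = 0.63, rho 0.61), Syt2 and Syt9 (r = 0.54) and Syt9 and Syt13 (r = 0.53). The lowest were between Syt13 and Syt17 (r = -0.67, rho -0.69), Syt7 and Syt15 (r = -0.57) and Syt13 and Syt15 (r = -0.54). With the letter means subtracted, the values for Syt7 with Syt13 and for Syt13 with Syt17 were 0.61 and -0.65. Among the members, Syt12 had its highest r over the 24 samples with Syt7 (0.47), and, with the letter means subtracted, with Syt1 (0.53, against 0.44 with Syt7). The samples of a number are shared by all these genes, and no p is given.

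Lists of cell type markers were set beside the synaptotagmins, with the 31.5% of all genes called over numbers as the background. The shares were above it for T and B lymphocytes (8 of 8), endothelium (7 of 7), fibroblasts and smooth muscle (7 of 8), club and other secretory cells (7 of 8) and alveolar type 2 cells (7 of 9). They were also above it for alveolar type 1 cells, ciliated cells and red blood cells (5 of 7 each) and macrophages (4 of 7). Near it were mast cells (3 of 8), basal and squamous cells (3 of 9), platelets (2 of 6), pulmonary neuroendocrine cells (4 of 13) and neutrophils (2 of 7). Below it were skeletal muscle (2 of 8), neurons and Schwann cells (1 of 11) and cardiac muscle (0 of 8 by the limma F test, with 0 at an unadjusted p under 0.05). Members of a list did not all lean the same way: Scgb1a1, the main club cell secretory gene, averaged 360127 normalized counts at number 2 and 591044 at number 4, whereas the mucin gene Muc5ac averaged 65.2 and 22.3. Col1a1, a collagen gene of fibroblasts, averaged 87335 at number 1 and 22853 at number 6. Neuroendocrine sums were 1090 to 2071 over all samples. Not every listed marker was in the table: 13 of 15 were measured for pulmonary neuroendocrine cells, 6 of 7 for platelets and 7 of 8 for red blood cells. No measured marker was at 0 in all samples, which was settled in advance, as every gene of the table had a mean of at least 0.5. The marker lists were chosen with earlier results of these data known, so no share is read as a property of a cell type. The part of these cell types in the levels of the synaptotagmins was not tested.

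The remaining synaptotagmins and the proteins that work with the family were taken from lists of 7 synaptotagmins and of 93 partners in 5 groups, of which 91 were measured. Over letters 0 of the 7 and 0 of the 91 were called (limma F test), and in the pairs 0, with 0 and 3 at an unadjusted p under 0.05 in the F test. Of all 30667 genes, 1199 had such an unadjusted p. The 3 partners were Rab3a, Rab3d and Sv2a. The log2 differences of G against A, B and C were 0.77, 0.24 and 0.44 for Rab3a. They were -0.11, -0.17 and -0.10 for Rab3d and -0.27, -0.16 and -0.21 for Sv2a. Over numbers 40 of the 91 partners (44.0%) were called, and 31.5% of all genes. These lists too were chosen with earlier results of these data known, so their shares are not read as a property of the lists. Syt5 had its highest mean at number 4, 1811 normalized counts, and its lowest at number 3, 1153 (limma adjusted p = 0.00212). Syt6 averaged 497 at number 1 and 229 at number 3 (adjusted p = 0.0220). Syt3, with means of 115 to 156, did not pass.

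Of 19 synaptotagmin-like, extended synaptotagmin, Doc2 and ferlin genes, which share the C2 domain, 12 were called over numbers. Doc2b, a calcium sensor of spontaneous release, averaged 1279 normalized counts at number 2 and 2363 at number 3 (limma adjusted p = 0.000313). Dysf, which encodes dysferlin, a protein of membrane repair, averaged 5681 at number 1 and 3865 at number 6 (adjusted p = 7.51e-05), and Rph3al 2898 at number 2 and 3799 at number 3. Myof, Esyt1 and Esyt2 were called as well, with ratios of 1.22, 1.29 and 1.23 between the highest and lowest number.

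Of 19 SNARE genes 6 were called over numbers, close to the share of all genes. Stx2 averaged 1871 normalized counts at number 3 and 2351 at number 5 (limma adjusted p = 0.00793), Snap23 3444 at number 6 and 4164 at number 3, and Vamp2 11431 at number 2 and 13849 at number 5. Vamp8, a SNARE of granule release in many secretory cells, did not pass (adjusted p = 0.494), and Stx12 did (adjusted p = 0.0357). Of 23 regulators of SNARE proteins 14 were called. Baiap3, a Munc13 relative known from dense-core vesicle traffic, had the smallest p of all the lists of partners. Its mean was 839 at number 1 and 1731 at number 6 (adjusted p = 1.03e-06). Cplx1, a complexin, averaged 102 at number 4 and 24.5 at number 6 (adjusted p = 8.20e-05), and Cadps, a priming factor of dense-core vesicles, 93.4 at number 1 and 197 at number 3 (adjusted p = 2.89e-05). Unc13d, Unc13b and Napa were called too, with ratios of 1.27, 1.34 and 1.12 between their highest and lowest number.

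Of 18 secretory Rab and exocyst genes 5 were called over numbers. Rab27a, which tethers secretory granules, averaged 3339 normalized counts at number 1 and 4283 at number 3 (limma adjusted p = 0.000799). Exoc8, an exocyst subunit, averaged 2318 at number 1 and 2866 at number 3, and Rab27b 676 at number 2 and 931 at number 5. Exoc2 was called (adjusted p = 0.0205), and Rab11a and Rab11b were not. Of 12 synaptic vesicle membrane genes 3 were called. Syngr1 averaged 864 at number 2 and 1394 at number 6 (adjusted p = 0.000196), Scamp5 562 at number 4 and 919 at number 2 and Syngr2 4090 at number 5 and 5148 at number 2. Sypl did not pass (adjusted p = 0.0612). The median log2 difference of G against A, B and C lay between -0.14 and 0.13 in each of the 5 partner lists, and for all genes between -0.01 and 0.00.

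Sequence around the annotated gene start was available for 6 of the 10 members, in the rat RefSeq table for GRCr8. Each window held 300 bases, from 250 before to 50 after that start. The windows are shown to give the sequence context of the members, and none was measured here. Whether transcription in these samples begins at the annotated starts was not tested, so a window need not hold the promoter in use. The core of the site bound by the aryl hydrocarbon receptor, GCGTG, was searched on both strands, because Ahrr was the gene called beside Syt12. It occurred in 0 of the 6 windows, in 29.7% of the 33469 windows of the table, and 3 times in the window of Ahrr. Syt12 has no entry in that table. The windows differed mainly in CG dinucleotides, whose median over all windows was 7 (quartiles 3 and 19). Syt2 had 4, Syt8 6, Syt1 8, Syt15 11, Syt11 13 and Syt9 45. Of the 6 members called over numbers, Syt1, Syt2 and Syt15 have a window. Their windows are printed with that of Syt9, the richest in CG, which was not called. CG dinucleotides are in capitals and the rest in lower case, 5′ to 3′ on the strand of the gene.
Syt1, chr7:46244164-46244463, minus strand: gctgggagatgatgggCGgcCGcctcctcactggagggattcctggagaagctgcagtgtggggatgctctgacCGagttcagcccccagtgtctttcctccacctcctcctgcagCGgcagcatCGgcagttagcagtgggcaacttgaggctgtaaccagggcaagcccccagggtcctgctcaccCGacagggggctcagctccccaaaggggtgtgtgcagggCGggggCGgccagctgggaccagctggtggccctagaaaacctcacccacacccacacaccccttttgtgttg
Syt2, chr13:48736872-48737171, plus strand: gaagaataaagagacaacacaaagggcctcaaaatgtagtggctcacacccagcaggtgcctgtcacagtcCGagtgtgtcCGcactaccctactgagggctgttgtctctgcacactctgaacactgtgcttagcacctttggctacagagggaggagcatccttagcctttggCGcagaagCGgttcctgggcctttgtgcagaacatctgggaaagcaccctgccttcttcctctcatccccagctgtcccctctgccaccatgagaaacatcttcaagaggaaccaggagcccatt
Syt15, chr16:9538490-9538789, plus strand: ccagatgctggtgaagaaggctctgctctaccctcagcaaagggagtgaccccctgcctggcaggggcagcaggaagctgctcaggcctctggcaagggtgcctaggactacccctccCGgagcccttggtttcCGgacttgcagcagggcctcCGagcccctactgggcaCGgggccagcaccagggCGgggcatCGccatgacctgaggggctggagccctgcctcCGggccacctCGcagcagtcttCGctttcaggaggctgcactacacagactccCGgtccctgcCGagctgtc
Syt9, chr1:170687555-170687854, plus strand: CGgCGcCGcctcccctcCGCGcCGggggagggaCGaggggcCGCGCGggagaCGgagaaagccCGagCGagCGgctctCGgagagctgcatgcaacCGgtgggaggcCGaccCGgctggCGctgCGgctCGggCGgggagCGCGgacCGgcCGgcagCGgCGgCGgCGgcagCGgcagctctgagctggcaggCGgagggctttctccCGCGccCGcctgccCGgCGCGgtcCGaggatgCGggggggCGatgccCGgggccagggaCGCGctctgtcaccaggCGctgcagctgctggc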

How the data were processed

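Lung tissue of rats was profiled by mRNA sequencing in 24 samples. The submitters' processing notes name STAR and the genome build GRCm38, without versions. The counter, annotation and normalization are not given in the sources used here. The authors deposited 1 table of signal values, taken here as normalized read counts from how they look. No value above 0 is a whole number, so tests for raw counts and the DESeq2 alternative were not run, and the design's branch for other values was used. Letters and numbers were read from the sample titles. The members and gene lists were chosen with earlier results of these data known.

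With limma 3.58.1 in R 4.3.3, limma-trend was fitted to log2(value + 1) of the 30667 genes with a mean of at least 0.5, which all passed. The letter model had 4 group means (F test with 3 degrees of freedom, and 6 pairs). The number model had letter and number as factors (F test with 5 degrees of freedom for the number). P-values are two-sided, Benjamini-Hochberg adjusted over all genes, with a threshold of 0.05. The script was tested on simulated data. Named were all members and the genes most like Syt12. From each partner list came the 3 genes with the highest mean (a way to pick well-counted genes, not a ranking of levels). At most 3 per list with the smallest p over numbers were added, as were partners with an unadjusted p under 0.05 over letters. Mouse clone and gene-model names (37.6% of the table) were left out of the search for genes most like Syt12.

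Pairing by number was checked by correlating, over 21922 genes, each sample's deviations from its letter mean. All 6 pairs were over 0.1 in B against A (0.17 to 0.59) and C against B (0.13 to 0.60). In the other 4 comparisons at least 1 pair was not, so there the numbers were not taken as pairs. Pairing rests on the data, as no label states it. No 2 samples had identical values. Alternatives were other scalings, a pseudocount of 0.1, a mean of at least 10, no filter, sample weights, a block for the number, and leaving samples out. The fit with no filter repeats the main fit, since all genes had passed.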

Additional observations from a re-analysis of the deposited data

Results flagged for a closer look

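Over the 10 members in 4 letters, 40 groups of 6 samples were examined for a sample whose gap to its nearest neighbour was too large by Dixon's 95% critical value for the ratio of gap to range. It happened in 2 groups, where chance gives about 1 in 20, or 2 of 40. Syt9 had 202 normalized counts in A2, and the other A samples had 114 to 145. Syt15 had 194 in G1, and the other G samples had 289 to 341.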

How the results depend on the processing

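Over letters, 2 genes were called (Ahrr and Syt12), and Ahrr was the one left wherever 1 was. Quantile normalization, scaling to the 75th percentile, leaving out A4 and B4, and leaving out A2 and C2 (the last added after the data were seen) gave 1 each, and fits without 1 sample gave 1 to 2. G against A gave 2 genes, 1 without A4 and B4, 1 without A2 and C2, 5 in the fit to its 12 samples and 1 to 4 without 1 sample. G against B gave 1 gene, 3 with sample weights and 1 to 2 without 1 sample. G against C gave 2 genes, 1 in the fit to its 12 samples and 1 to 2 without 1 sample. With the number as a block, the letters gave 12 genes, G against A 391, G against B 2 and G against C 11. Under that block Syt1 passed in G against A (limma adjusted p = 0.0441), although the numbers do not pair those samples by the rule used. Without the block, differences between numbers stay in the spread that the letters are tested against. The block changed no call in B against A and C against B, at 0 genes each. The log2 difference of Syt12 ranged from -0.81 to -0.65 against A, -0.91 to -0.74 against B and -0.98 to -0.84 against C without 1 sample. Of the other 9 members 0 were called over letters in each fit run.

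Over numbers, 9653 genes were called, with 6760 to 10623 under the other settings. Members called numbered 6 or 7 without 1 sample and fell to 3 without number 6 (added after the data were seen), where the limma adjusted p was 0.487 for Syt7, 0.0573 for Syt15 and 0.0623 for Syt2. Syt2 was also lost without number 1 (0.0621), without number 2 (0.0678) and over A, B and C alone (0.0523). Syt1, Syt13 and Syt17 passed under every setting run, with adjusted p up to 0.0456 (Syt13 without number 2). Syt12 passed without number 1 (0.0480) or number 5 (0.0341). The cause of these changes was not tested. Fits that left samples out also held fewer samples, and the part of that was not tested either. With Spearman's rho the genes most like Syt12 were Cd207, Lima1, Enpp2, Thap1 and Alox15. Depth before normalization is unknown, and members with low counts such as Syt8 (9.43 to 40.7) are the least precise.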
